A study of Mus musculus with 8 samples.

Results

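Of the 1153 transposable element subfamilies counted in poly(A) RNA of mouse embryonic stem cells (mESCs), 285 belong to ERVK, the family of long terminal repeat (LTR) retrotransposons related to betaretroviruses. The data described here are those of 242 of these 285 ERVK subfamilies, namely every ERVK name that does not begin with IAP, MMERVK10 or RLTR10 and does not hold ETn or ETN. Names alone made this choice, and no measured value entered it. The 242 subfamilies comprised 29 internal regions, which hold the retroviral coding sequences, and 213 LTRs, which flank the internal region and carry its promoter. By the start of their names they fell into ERVB (21 subfamilies), MMERVK9 (2), MYSERV (3), RLTR9 (13), RLTR13 (23), other RLTR (101), RMER (46) and all others (33).

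RNA-seq covered 4 conditions with 2 replicates each, all from 1 line of mESCs that carries a conditional allele of Setdb1, so that every control carried the conditional allele as well. WT mESCs were this line without any treatment. UNC0642-treated mESCs received 2 µM UNC0642, an inhibitor of the H3K9 methyltransferases G9a and GLP, for 3 days. Setdb1 KO mESCs received 800 nM 4-OHT (4-hydroxytamoxifen, which induces the deletion) for 5 days, and UNC0642-treated Setdb1 KO mESCs are labelled as receiving 800 nM 4-OHT for 2 days followed by 2 µM UNC0642 for 3 days, whereas the study's methods give 5 days of 4-OHT for the deletion. No WT library was exposed to 4-OHT, so an effect of 4-OHT and an effect of the deletion cannot be told apart.

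SETDB1 trimethylates histone H3 at lysine 9 and is brought to retroviral sequences by TRIM28 and KRAB zinc finger proteins, and in mESCs it is best known for silencing ERVK elements such as IAP and ETn/MusD. G9a and GLP place H3K9 mono- and dimethylation and are best known among retroviral elements for silencing MERVL, which is not an ERVK element. A provirus is transcribed from its 5′ LTR through the internal region, while most LTR copies in the genome are solitary and can act as promoters or enhancers of other transcripts. The comparison of the 4 conditions asks how the less studied ERVK subfamilies responded to loss of SETDB1, to inhibition of G9a/GLP and to both.

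The total count was between 11702590 and 26807807 per library, and 3 counts, taken as the detection floor, correspond to between 0.112 and 0.256 CPM (counts scaled to a common library size with TMM factors). The level of Setdb1 was 169.5 and 127.3 CPM in WT, 130.5 and 86.4 CPM in UNC0642-treated, 47.3 and 51.0 CPM in Setdb1 KO, and 61.1 and 34.1 CPM in UNC0642-treated Setdb1 KO mESCs, so that both KO conditions lay below both WT libraries. Counts cover the whole gene and not only its deleted part, and the difference in Setdb1 KO mESCs did not pass the test (adjusted p = 0.181, edgeR quasi-likelihood test with Benjamini-Hochberg adjustment). With the replicate number as a block it passed in Setdb1 KO (adjusted p = 0.0164) and in UNC0642-treated Setdb1 KO mESCs (adjusted p = 0.00593, edgeR). The 8 genes of naive pluripotency summed to between 2230 and 4635 CPM in every library, and none of them passed the test in any comparison.

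Replicates 1 and 2 stood apart from each other in these subfamilies in all 4 conditions. Among the 230 of 242 subfamilies that passed the filter on low counts, the median difference of replicate 1 minus replicate 2 was between 0.67 and 0.88 on the log2 scale, while the same median over genes was between -0.15 and -0.02. Replicate 1 was the higher library for 191 of 230 subfamilies in WT, 207 in UNC0642-treated, 214 in Setdb1 KO and 202 in UNC0642-treated Setdb1 KO mESCs. The main counts of called subfamilies are therefore given with and without the replicate number as a block. The remaining 12 subfamilies, among them RLTR9A4, RLTR43A, RLTR46, RMER3D1 and ERVB4_1-LTR_MM, had at most 21 counts over all libraries and were not tested.

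The summed level of the 242 subfamilies was 2682 and 1695 CPM in WT, 3591 and 2224 CPM in UNC0642-treated, 9617 and 5338 CPM in Setdb1 KO, and 11990 and 7122 CPM in UNC0642-treated Setdb1 KO mESCs. All 4 libraries of the KO conditions lay above the other 4, whereas UNC0642-treated and WT libraries overlapped, as did both KO conditions. The means were 2189 ± 698 (SD, n = 2), 2908 ± 966, 7478 ± 3026 and 9558 ± 3444 CPM, which is 1.33, 3.42 and 4.37 times the WT mean in the treated conditions. These subfamilies took between 0.187% and 0.263% of all counts in WT and between 0.738% and 0.971% in UNC0642-treated Setdb1 KO mESCs. In bulk RNA, more cells with transcripts and more transcripts per cell cannot be told apart. No test was run on sums.

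Internal regions and LTRs contributed differently to this sum. The 29 internal regions summed to 579 and 384 CPM in WT, 971 and 664 CPM in UNC0642-treated, 4150 and 2070 CPM in Setdb1 KO, and 5344 and 3207 CPM in UNC0642-treated Setdb1 KO mESCs. In both replicates, each UNC0642-treated library lay above both WT libraries, and the KO libraries lay far above these. The 213 LTRs summed to 2103 and 1312 CPM in WT, 2620 and 1560 CPM in UNC0642-treated, 5467 and 3268 CPM in Setdb1 KO, and 6649 and 3915 CPM in UNC0642-treated Setdb1 KO mESCs. The mean ratio to WT was thus 6.46 in Setdb1 KO and 8.89 in UNC0642-treated Setdb1 KO mESCs for internal regions, against 2.56 and 3.09 for LTRs. These ratios of sums weigh most the few subfamilies with the highest counts, among internal regions RLTR45-int, RMER16-int, MMERVK9C_I-int and MMERVK9E_I-int. The median log2 fold change per subfamily was 1.90 and 2.25 for internal regions and 1.14 and 1.31 for LTRs.

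**Figure D1:**
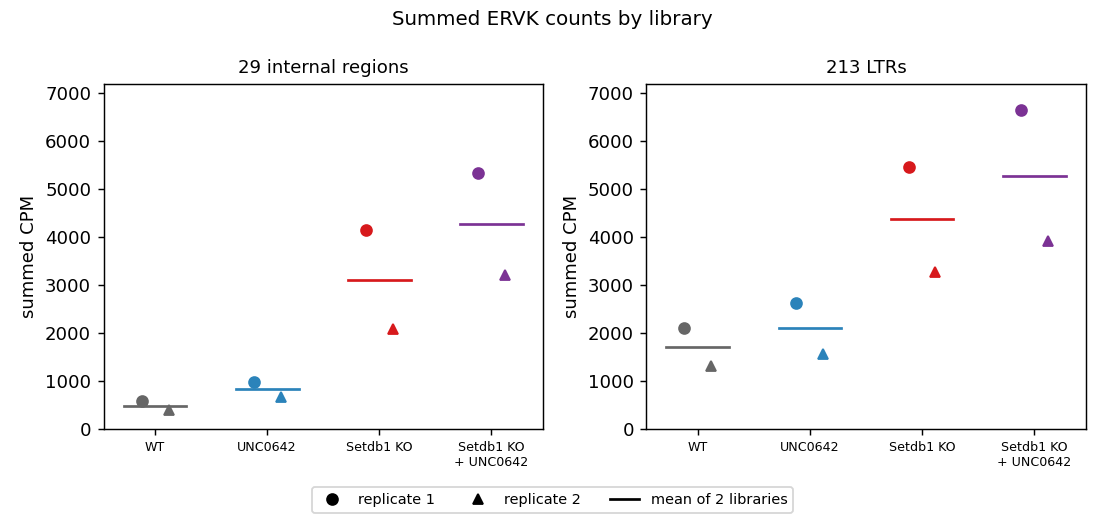
Summed CPM (y axis) of the 29 internal regions and of the 213 LTRs in each library, by condition (x axis), with circles for replicate 1, triangles for replicate 2 and lines for the mean of 2 libraries. Internal regions had a mean of 481 CPM in WT and 4275 CPM in UNC0642-treated Setdb1 KO mESCs, and replicate 1 was the higher library in every condition.

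In Setdb1 KO mESCs, 14 of the 230 tested subfamilies were higher than in WT and none was lower, where a call needed an adjusted p below 0.05 together with more than a 2-fold change (edgeR). That is 6.09% of the subfamilies, beside 1.11% of all 16245 genes and subfamilies tested, of which 0.00616% were called lower. With the replicate block, 59 subfamilies were higher and 0 lower, beside 3.77% and 0.486% of all features. DESeq2 on all libraries called 43 higher and 0 lower, beside 3.32% and 0.179% of all features, and DESeq2 on the compared libraries 36 and 0, beside 2.93% and 0.138%. At an unadjusted p under 0.05, 89 subfamilies were higher, beside 7.07% of all features, and 0 were lower, beside 1.63% (edgeR). The median log2 fold change of the 230 subfamilies was 1.21, beside -0.02 over all features, and 149 had a fitted fold change above 2, beside 13.4% of all features. Both KO libraries lay above both WT libraries for 155 subfamilies, beside 17.5% of all features, and below them for 0 subfamilies, beside 13.1%.

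The internal region RLTR45-int showed the largest fitted change of the 14. Its level was 22.8 and 35.7 CPM in WT, 126.5 and 117.7 CPM in UNC0642-treated, 999 and 454 CPM in Setdb1 KO, and 1849 and 1115 CPM in UNC0642-treated Setdb1 KO mESCs. The 4 conditions formed 4 separate levels, with UNC0642-treated libraries between WT and Setdb1 KO. Its log2 fold change in Setdb1 KO mESCs was 4.63 ± 0.61 (SE, n = 2 per condition, adjusted p = 0.0114, edgeR). Its own LTR, RLTR45, stood at 14.6 and 9.24 CPM in WT and at 81.9 and 52.8 CPM in Setdb1 KO mESCs, without overlap, and rose by 2.50 ± 0.44 on the log2 scale (adjusted p = 0.033, edgeR).

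ERVB4_2-I_MM-int, the internal region of a betaretrovirus-like element, was at 5.05 and 5.12 CPM in WT, 15.7 and 11.3 CPM in UNC0642-treated, 123.4 and 51.8 CPM in Setdb1 KO, and 195.3 and 95.9 CPM in UNC0642-treated Setdb1 KO mESCs. The KO libraries did not overlap those of WT or of UNC0642-treated mESCs, while both KO conditions overlapped each other. The log2 fold change in Setdb1 KO mESCs was 4.10 ± 0.59 (adjusted p = 0.0146, edgeR). RLTR44-int was at 4.62 and 3.43 CPM in WT, 5.03 and 6.01 CPM in UNC0642-treated, 30.6 and 36.5 CPM in Setdb1 KO, and 99.7 and 70.6 CPM in UNC0642-treated Setdb1 KO mESCs. Again the conditions formed 4 separate levels, here with UNC0642-treated libraries close to WT. Its log2 fold change in Setdb1 KO mESCs was 3.07 ± 0.44 (adjusted p = 0.0142, edgeR).

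Among the internal regions with the highest total counts, RMER16-int and MMERVK9C_I-int rose in Setdb1 KO mESCs. RMER16-int was at 55.9 and 65.6 CPM in WT, 156.6 and 163.6 CPM in UNC0642-treated, 939 and 360 CPM in Setdb1 KO, and 1061 and 561 CPM in UNC0642-treated Setdb1 KO mESCs. Here too the UNC0642-treated libraries lay between WT and the KO conditions, which overlapped each other (log2 fold change in Setdb1 KO 3.42 ± 0.60, adjusted p = 0.0323, edgeR). MMERVK9C_I-int was at 85.8 and 41.9 CPM in WT, 102.7 and 64.9 CPM in UNC0642-treated, 600 and 457 CPM in Setdb1 KO, and 552 and 469 CPM in UNC0642-treated Setdb1 KO mESCs. WT and UNC0642-treated libraries overlapped for this subfamily, and so did the KO conditions (log2 fold change in Setdb1 KO 3.05 ± 0.52, adjusted p = 0.0291, edgeR). The related MMERVK9E_I-int, at 69.4 and 42.6 CPM in WT against 523 and 256 CPM in Setdb1 KO mESCs, missed the threshold (adjusted p = 0.0538, edgeR) and passed it with the replicate block (adjusted p = 0.000747, edgeR).

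**Figure D2:**
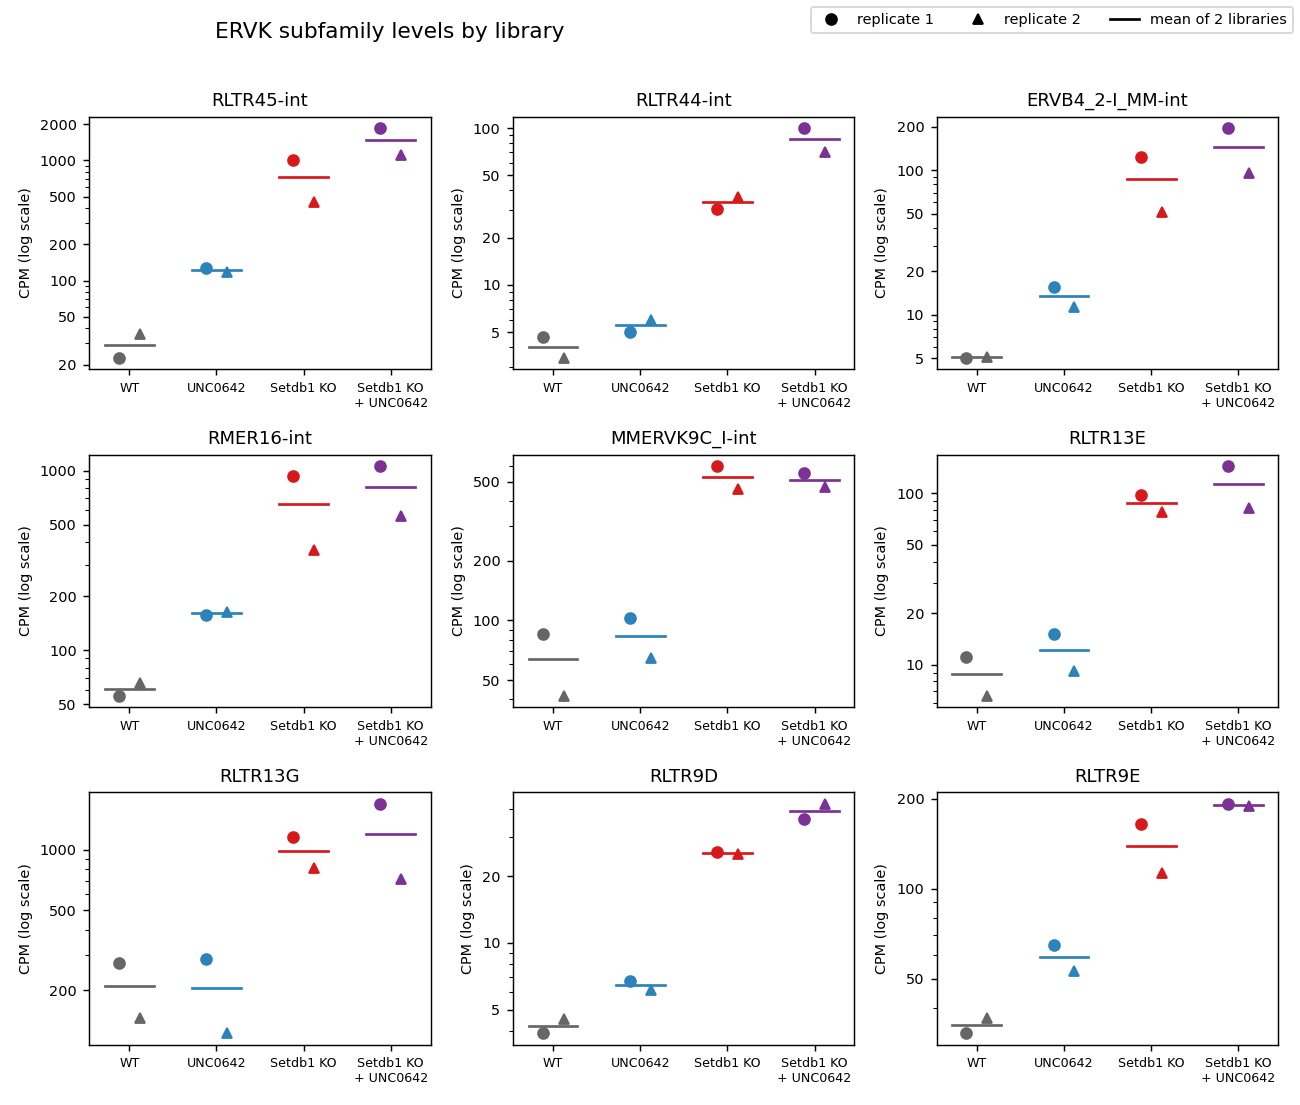
Levels of 9 subfamilies in each library in CPM on a log axis (y axis) by condition (x axis), with circles for replicate 1, triangles for replicate 2 and lines for the mean of 2 libraries. RLTR45-int, ERVB4_2-I_MM-int and RMER16-int show UNC0642-treated libraries between WT and Setdb1 KO, while RLTR13G, with 273 and 145 CPM in WT and 286 and 122 CPM in UNC0642-treated mESCs, shows the spread between replicates.

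The other LTRs called in Setdb1 KO mESCs were RLTR9D, RLTR13E, RLTR13D6, ERVB7_1-LTR_MM, ERVB7_2B-LTR_MM, RLTR26D_MM, RLTR44B and RLTR46A2. RLTR9 LTRs are known as binding sites of pluripotency factors in mESCs, and RLTR9D was at 3.92 and 4.55 CPM in WT, 6.77 and 6.12 CPM in UNC0642-treated, 25.7 and 25.3 CPM in Setdb1 KO, and 36.1 and 42.3 CPM in UNC0642-treated Setdb1 KO mESCs. Its 4 conditions did not overlap, and replicates were close (log2 fold change in Setdb1 KO 2.58 ± 0.43, adjusted p = 0.0285, edgeR). RLTR13E was at 11.1 and 6.60 CPM in WT, 15.2 and 9.21 CPM in UNC0642-treated, 97.6 and 77.8 CPM in Setdb1 KO, and 144.5 and 82.1 CPM in UNC0642-treated Setdb1 KO mESCs. WT overlapped UNC0642-treated mESCs and the KO conditions overlapped each other (log2 fold change in Setdb1 KO 3.32 ± 0.51, adjusted p = 0.0191, edgeR). ERVB7_2B-LTR_MM was at 2.61 and 2.67 CPM in WT against 23.7 and 31.6 CPM in Setdb1 KO mESCs, and ERVB7_1-LTR_MM at 16.3 and 14.6 CPM in WT against 81.8 and 76.2 CPM in Setdb1 KO mESCs. Both were without overlap, with log2 fold changes of 3.39 ± 0.50 (adjusted p = 0.0164, edgeR) and 2.36 ± 0.43 (adjusted p = 0.0363, edgeR). RLTR26D_MM stood at 0.958 and 1.08 CPM in WT against 8.47 and 12.6 CPM with Setdb1 deleted, again without overlap (log2 fold change 3.35 ± 0.60, adjusted p = 0.0351, edgeR). RLTR13D6 was at 5.14 and 3.79 CPM in WT against 33.0 and 21.2 CPM in Setdb1 KO mESCs, and reached 39.5 and 36.1 CPM in the combination. RLTR44B was at 0.435 and 0.180 CPM in WT against 7.16 and 4.84 CPM in Setdb1 KO mESCs, and RLTR46A2 at 0.348 and 0.144 CPM and 4.49 and 2.81 CPM. Both had at most 5 counts in either WT library, so their fold changes are not given.

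The call in Setdb1 KO mESCs rested on every WT and KO library. Without WT replicate 1 or without WT replicate 2 no subfamily was called, without KO replicate 1 there were 4, without KO replicate 2 there were 8, and without replicate 2 of UNC0642-treated Setdb1 KO mESCs there were 9. A fold change above 2 within replicate 1 and within replicate 2 alike was found for 99 of 230 subfamilies, beside 1170 of 16245 features. The medians of the subfamilies were 1.26 and 0.99 on the log2 scale in replicates 1 and 2.

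In UNC0642-treated Setdb1 KO mESCs, 36 of 230 subfamilies were higher than in WT and none was lower (edgeR). This is 15.7% of the subfamilies, beside 3.6% of all features called higher and 0.505% called lower. With the replicate block 123 were higher and 0 lower, beside 9.47% and 6.44% of all features. DESeq2 on all libraries called 69 and 0, beside 6.62% and 2.72%, and DESeq2 on the compared libraries 59 and 0, beside 6.1% and 2.12%. The median log2 fold change was 1.39, beside -0.01 over all features, and 163 subfamilies had a fitted fold change above 2, beside 16.8% of all features. Both libraries lay above both WT libraries for 181 subfamilies, beside 22.3% of all features, and below them, as for 21.1% of all features, for 1, RLTR20A1, at 0.697 and 0.433 CPM in WT and 0.415 and 0.257 CPM in UNC0642-treated Setdb1 KO mESCs. The count was 0 without WT replicate 1, 1 (RLTR44-int) without WT replicate 2 and 16 without replicate 1 of UNC0642-treated Setdb1 KO mESCs.

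Every one of the 14 subfamilies called in Setdb1 KO mESCs was among these 36, which makes 38.9% of them, as were the 59 among the 123 with the block (48%), and both comparisons share the WT libraries. RLTR45-int had a log2 fold change of 5.66 ± 0.64 (adjusted p = 0.00388, edgeR), ERVB4_2-I_MM-int of 4.84 ± 0.61 (adjusted p = 0.00524, edgeR) and RLTR44-int of 4.41 ± 0.46 (adjusted p = 0.00296, edgeR). For RLTR13E the value was 3.69 ± 0.52 and for RLTR9D 3.21 ± 0.44 (adjusted p = 0.007 in both, edgeR). MMERVK9C_I-int, at 3.00 ± 0.52 (adjusted p = 0.0146, edgeR), had nearly the value it had without the inhibitor.

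The other 22 were called in UNC0642-treated Setdb1 KO mESCs and missed the threshold in Setdb1 KO mESCs, which does not show that they differed between these conditions. ERVB4_2-LTR_MM, the LTR of the betaretrovirus-like element above, was at 1.13 and 1.26 CPM in WT, 5.74 and 5.61 CPM in UNC0642-treated, 6.73 and 6.16 CPM in Setdb1 KO, and 16.7 and 20.2 CPM in UNC0642-treated Setdb1 KO mESCs. UNC0642-treated and Setdb1 KO libraries stood at nearly the same level, well above WT and well below both treatments combined (log2 fold change in the combination 3.94 ± 0.53, adjusted p = 0.00662, edgeR). RLTR44A, an LTR, was at 1.83 and 1.52 CPM in WT, 2.73 and 3.71 CPM in UNC0642-treated, 6.01 and 5.06 CPM in Setdb1 KO, and 16.6 and 20.9 CPM in UNC0642-treated Setdb1 KO mESCs. It formed 4 separate levels (log2 fold change in the combination 3.49 ± 0.54, adjusted p = 0.00979, edgeR). BGLII, an LTR, was at 16.6 and 7.47 CPM in WT, 25.5 and 17.8 CPM in UNC0642-treated, 99.1 and 26.1 CPM in Setdb1 KO, and 197.2 and 112.3 CPM in UNC0642-treated Setdb1 KO mESCs. Its libraries in the combination lay above all others (3.69 ± 0.72 on the log2 scale, adjusted p = 0.0237, edgeR).

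RLTR9E, the RLTR9 LTR with the highest total count, was at 32.9 and 37.1 CPM in WT, 65.1 and 53.2 CPM in UNC0642-treated, 164 and 113 CPM in Setdb1 KO, and 192.1 and 188.4 CPM in UNC0642-treated Setdb1 KO mESCs. Its 4 conditions did not overlap (2.44 ± 0.40 on the log2 scale in the combination, adjusted p = 0.0112, edgeR). RLTR9A showed the same order, with 3.40 and 3.21 CPM in WT, 4.98 and 4.03 CPM in UNC0642-treated, 15.8 and 11.3 CPM in Setdb1 KO, and 18.3 and 17.7 CPM in the combination (2.44 ± 0.49 on the log2 scale, adjusted p = 0.0262, edgeR). RLTR13B1 was at 10.8 and 4.80 CPM in WT and 104.2 and 54.7 CPM in UNC0642-treated Setdb1 KO mESCs (3.36 ± 0.67 on the log2 scale, adjusted p = 0.0261, edgeR). RMER3D-int, at 10.7 and 5.12 CPM in WT and 112.1 and 45.8 CPM in the combination, and ERVB5_1-I_MM-int, at 1.57 and 0.614 CPM in WT and 13.5 and 8.60 CPM, were the remaining internal regions called beside MMERVK9E_I-int. The other 13 were LTRs, namely RLTR27, RLTR1F_Mm, ERVB4_1B-LTR_MM, ERVB7_3-LTR_MM, ERVB7_4-LTR_MM, RMER16A3, RMER16_Mm, RLTR9F, RLTR13D, RLTR26B_MM, RLTR44D, RLTR50B and, with the smallest fitted change of the 36, RLTR26_Mus at 1.92 ± 0.45 on the log2 scale (adjusted p = 0.0494, edgeR).

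Elements with several named LTRs allowed a view across relatives. Of the RLTR44 names, RLTR44-int, RLTR44A, RLTR44B and RLTR44D were called in the combination, and RLTR44D had 7 and 1 counts in WT, 7 and 13 in UNC0642-treated, 56 and 119 in Setdb1 KO mESCs, and 83 and 316 with both treatments. RLTR44-int and RLTR44A were higher in both libraries of the combination than in either Setdb1 KO library, whereas RLTR44B, at 17.4 and 5.26 CPM in the combination, overlapped Setdb1 KO. Such a separation of the combination above Setdb1 KO was found for 13.5% of the 230 tested subfamilies, beside 12.2% of all features. No subfamily was called in that comparison. Of the ERVB7 LTRs, ERVB7_1-LTR_MM stood at 107 and 69.2 CPM and ERVB7_2B-LTR_MM at 24.8 and 33.6 CPM in the combination, close to their Setdb1 KO levels. ERVB7_3-LTR_MM was at 1.05 and 1.73 CPM in WT, reached 7.33 and 6.82 CPM in Setdb1 KO and stood at 9.24 and 7.43 CPM in the combination. ERVB7_4-LTR_MM was at 1.57 and 2.63 CPM in WT, 3.90 and 3.74 CPM in UNC0642-treated, 7.71 and 8.53 CPM in Setdb1 KO, and 15.2 and 15.7 CPM in the combination, again 4 separate levels. RLTR27 likewise lay higher in the combination (20.2 and 16.3 CPM) than in Setdb1 KO (8.60 and 11.2 CPM), and RLTR1F_Mm, with 3 and 5 counts in WT, was at 1.91 and 2.31 CPM in Setdb1 KO and 4.26 and 4.34 CPM in the combination.

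**Figure D3:**
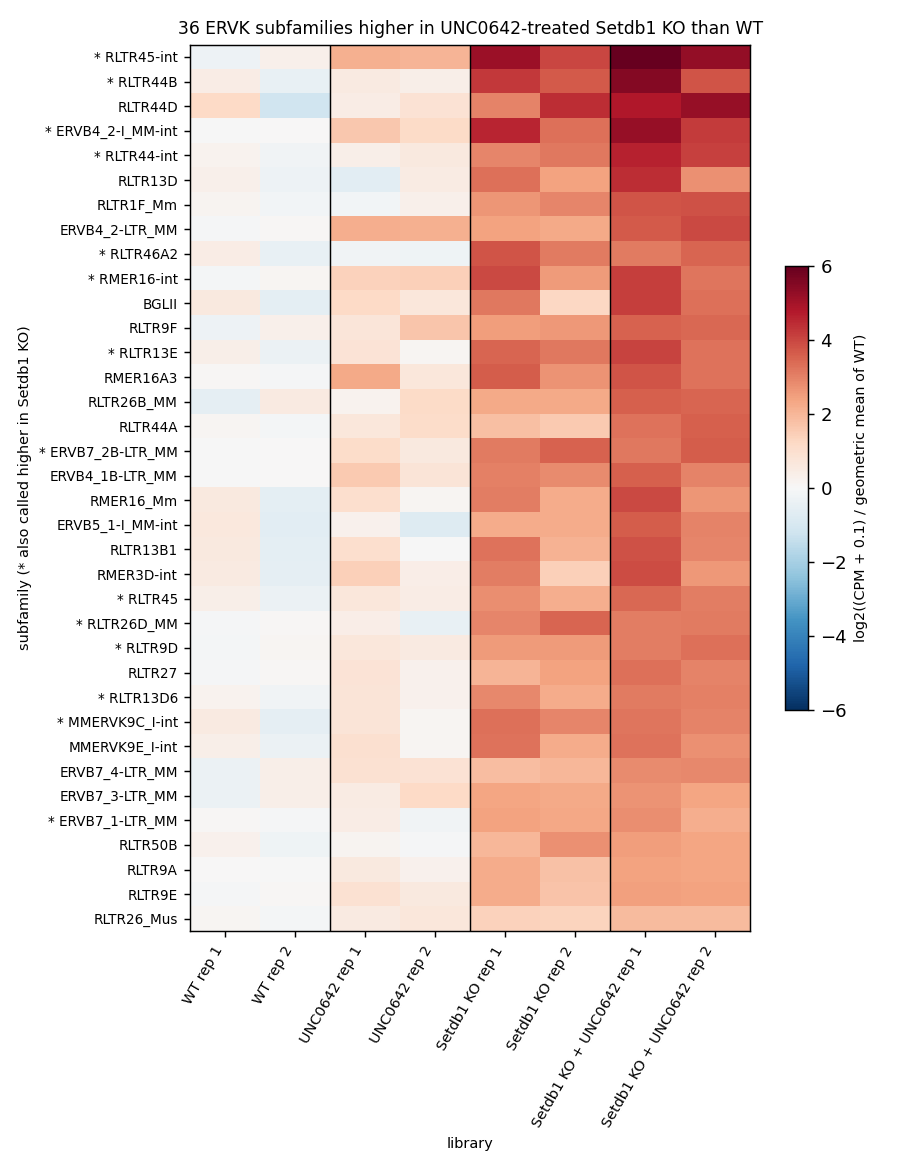
Level of the 36 subfamilies called higher in UNC0642-treated Setdb1 KO than in WT mESCs (rows, ordered by fitted change) in each of 8 libraries (columns), as log2 of CPM plus 0.1 relative to the geometric mean of the WT libraries, with red above and blue below WT. Asterisks mark the 14 also called in Setdb1 KO mESCs, and the 4 libraries on the right, those of the KO conditions, are above WT in every row.

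UNC0642 alone called no subfamily. In UNC0642-treated mESCs, 0 of 230 subfamilies were called higher or lower than in WT by edgeR, beside 0% of all features, and 0 with the replicate block, beside 0.166% of all features called higher. At an unadjusted p under 0.05, 6 of 230 subfamilies were higher, a share no larger than the 2.96% of all features, and 0 were lower, beside 0.394%. DESeq2 on all libraries called 2 subfamilies higher, beside 0.739% of all features, namely RLTR45-int and ERVB4_2-LTR_MM. DESeq2 on the WT and UNC0642-treated libraries called 1, RLTR45-int, beside 0.616% of all features, and 0 lower, beside 0.00655%. The median log2 fold change was 0.39, beside -0.02 over all features. Of 230 fitted values 199 were above 0, beside 7804 of 16245 over all features. A fitted fold change above 2 was found for 19 of 230 subfamilies, a share near that of all features (1344 of 16245, 8.27%). Both UNC0642-treated libraries lay above both WT libraries for 59 subfamilies, beside 13.7% of all features, and below them for 0, beside 10.7%.

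The 6 subfamilies with an unadjusted p under 0.05 were ERVB4_2-LTR_MM, RLTR45-int, RLTR13B2, RMER16A3, ERVB4_2-I_MM-int and RMER16-int. They were picked by that p, so their values are a description. The log2 fold change of ERVB4_2-LTR_MM was 2.23 ± 0.50 (adjusted p = 0.304, edgeR), that of RLTR45-int 2.06 ± 0.55 (adjusted p = 0.569, edgeR) and that of RMER16A3 1.73 ± 0.65 (adjusted p = 1, edgeR). RLTR13B2, an LTR, was at 1.22 and 1.77 CPM in WT and 6.30 and 4.53 CPM in UNC0642-treated mESCs, and RMER16A3 at 1.83 and 1.70 CPM in WT and 8.84 and 2.84 CPM in UNC0642-treated mESCs.

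Between UNC0642-treated Setdb1 KO and Setdb1 KO mESCs no subfamily was called by edgeR, by edgeR with the replicate block or by DESeq2, beside 0% of all features for edgeR, 0.123% called higher and 0.00616% lower with the block, 0.56% and 0.0739% with DESeq2 on all libraries, and 0.684% and 0.0391% with DESeq2 on the compared libraries. The labelled exposure to 4-OHT differs between these conditions, and this difference and the inhibitor cannot be told apart. The median log2 fold change was 0.18. Both libraries of the combination lay above both Setdb1 KO libraries for 31 subfamilies (13.5%), beside 12.2% of all features. They lay below them, as for 13.3% of all features, for 1, RLTR50A, which had at most 15 counts in any of these libraries. At an unadjusted p under 0.05, 4 of 230 subfamilies were higher, a smaller share than the 2.79% of all features, and 0 were lower, beside 1.79%. These 4 were picked by that p, so their values are a description. RLTR44A had the smallest p, with a log2 difference of 1.76 (adjusted p = 0.69, edgeR), followed by RLTR44-int with 1.34 (adjusted p = 0.753, edgeR) and RLTR12F, an LTR that had 2 and 0 counts with Setdb1 deleted and 12 in each library of the combination. ERVB4_2-LTR_MM, the remaining one, differed by 1.52 (adjusted p = 0.775, edgeR).

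Against UNC0642-treated mESCs, 14 subfamilies were higher in UNC0642-treated Setdb1 KO mESCs and none was lower (edgeR), beside 1.13% of all features called higher and 0.0369% called lower. With the replicate block 55 were higher and 0 lower, beside 3.79% and 0.825%. DESeq2 on all libraries called 42 and 0, beside 3.21% and 0.382%, and DESeq2 on the compared libraries 38 and 0, beside 3.23% and 0.277%. All 14 were among the 36 called against WT, in a comparison that shares the libraries of the combination. RLTR44-int had the smallest p (log2 fold change 3.95 ± 0.45, adjusted p = 0.00788, edgeR), followed by RLTR13E (3.22 ± 0.51, adjusted p = 0.0222), RLTR45-int (3.60 ± 0.58, adjusted p = 0.0248), RLTR45 (2.71 ± 0.44, adjusted p = 0.0269) and RLTR9D (2.61 ± 0.43, adjusted p = 0.0269). The others were ERVB4_2-I_MM-int, RLTR1F_Mm, RLTR44B, ERVB7_1-LTR_MM, RLTR26D_MM, ERVB7_2B-LTR_MM, RLTR46A2, RLTR13D6 and MMERVK9C_I-int. RMER16-int was not called here (adjusted p = 0.114, edgeR), and it passed with the block (adjusted p = 0.0169, edgeR). Without UNC0642-treated replicate 1 or 2 the count was 0, without replicate 1 of the combination it was 1 (RLTR44-int), without replicate 2 of the combination 5, and without WT replicate 1, WT replicate 2, KO replicate 1 or KO replicate 2 it was 7, 9, 7 and 8.

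The interaction, which tests whether the change with both treatments departs from the sum of the changes on the log2 scale, was called for 0 of 230 subfamilies by edgeR, with the block and by DESeq2, beside 0% of all features in edgeR and 0.00616% below additivity in DESeq2. No subfamily had an unadjusted p under 0.05, beside 0.185% of all features above and 0.566% below additivity. The median interaction was -0.18, with 69 of 230 values above 0, beside -0.04 and 7462 of 16245 over all features. RLTR13B2 (-1.66), RMER16A3 (-1.43) and RLTR44-int (0.88) had the smallest p, with an adjusted p of 1 each (edgeR). For RLTR44-int, with its value above 0, UNC0642-treated libraries lay near WT and those of the combination above Setdb1 KO.

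Described by name group, the 20 tested ERVB subfamilies had the largest median change apart from the MMERVK9 pair. Their median log2 fold change was 2.24 in Setdb1 KO and 2.71 in UNC0642-treated Setdb1 KO mESCs, and 3 and 8 of 20 were called (11 and 19 with the block). That is 15% and 40% (55% and 95% with the block), beside 1.11% and 3.6% of all features (3.77% and 9.47% with the block). ERVB summed to 133 and 86.1 CPM in WT, 158 and 102 CPM in UNC0642-treated, 545 and 391 CPM in Setdb1 KO, and 797 and 455 CPM in the combination. The KO conditions lay above all other libraries here and in each of the other name groups except the one of all others. In that group Setdb1 KO replicate 2 (267 CPM) lay below WT replicate 1 (268 CPM) and UNC0642-treated replicate 1 (340 CPM). The MMERVK9 pair summed to 155 and 84.4 CPM in WT against 1123 and 714 CPM in Setdb1 KO mESCs, 7.67 times the WT mean. RLTR9 summed to 49.2 and 52.1 CPM in WT, 89.5 and 75.5 CPM in UNC0642-treated, 229.6 and 167.6 CPM in Setdb1 KO, and 287 and 281 CPM in the combination, with no overlap between any of the 4 conditions. Of 12 tested RLTR9 subfamilies, 1 was called in Setdb1 KO and 4 in the combination (5 and 8 with the block). These were 8.33% and 33.3% (41.7% and 66.7% with the block), beside the same shares of all features.

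Among the 23 RLTR13 LTRs, 2 were called in Setdb1 KO and 4 in UNC0642-treated Setdb1 KO mESCs (7 and 14 with the block). The shares were 8.7% and 17.4% (30.4% and 60.9% with the block), beside 1.11% and 3.6% of all features (3.77% and 9.47%). RLTR13G held the most counts of all 242 subfamilies, 94354 over the 8 libraries, and was at 273 and 145 CPM in WT, 286 and 122 CPM in UNC0642-treated, 1155 and 810 CPM in Setdb1 KO, and 1688 and 716 CPM in the combination. The KO conditions lay above the other libraries, and the replicates within a condition lay far apart. RLTR13G missed the threshold without the block (2.23 ± 0.64 on the log2 scale in Setdb1 KO, adjusted p = 0.204, edgeR, and 2.52 ± 0.65 in the combination, adjusted p = 0.0655, edgeR) and passed with it (adjusted p = 0.00226 and 0.000937, edgeR). RLTR13D5, an LTR known as an enhancer in trophoblast stem cells, was at 3.40 and 1.30 CPM in WT and 13.9 and 9.45 CPM in the combination (adjusted p = 0.108 without and 0.00438 with the block, edgeR).

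The 96 tested other RLTR subfamilies had medians of 1.04 and 1.20, with 6 and 13 called (20 and 41 with the block), and the 42 tested RMER subfamilies had 1 and 4 called (8 and 27 with the block). The shares were 6.25% and 13.5% for other RLTR and 2.38% and 9.52% for RMER, beside 1.11% and 3.6% of all features. With the block they were 20.8% and 42.7%, and 19% and 64.3%, beside 3.77% and 9.47%. RMER16-int was the RMER subfamily called in Setdb1 KO mESCs, and RMER16A3, RMER16_Mm and RMER3D-int were added in the combination. Of the 32 other subfamilies tested, BGLII alone was called, in the combination, and 9 were called there with the block. BGLII is 3.12% of that group, beside 3.6% of all features, and the 9 are 28.1%, beside 9.47%. In Setdb1 KO 0 of the group were called, and 4 with the block (12.5%, beside 3.77%). Taken by kind, 5 of 29 internal regions and 9 of 201 tested LTRs were called in Setdb1 KO, and 8 and 28 in the combination. With the block these counts were 16 and 43 in Setdb1 KO, and 24 and 99 in the combination. Without the block the shares were 17.2% of internal regions and 4.48% of LTRs in Setdb1 KO, and 27.6% and 13.9% in the combination. With it they were 55.2% and 21.4%, and 82.8% and 49.3%.

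**Figure D4:**
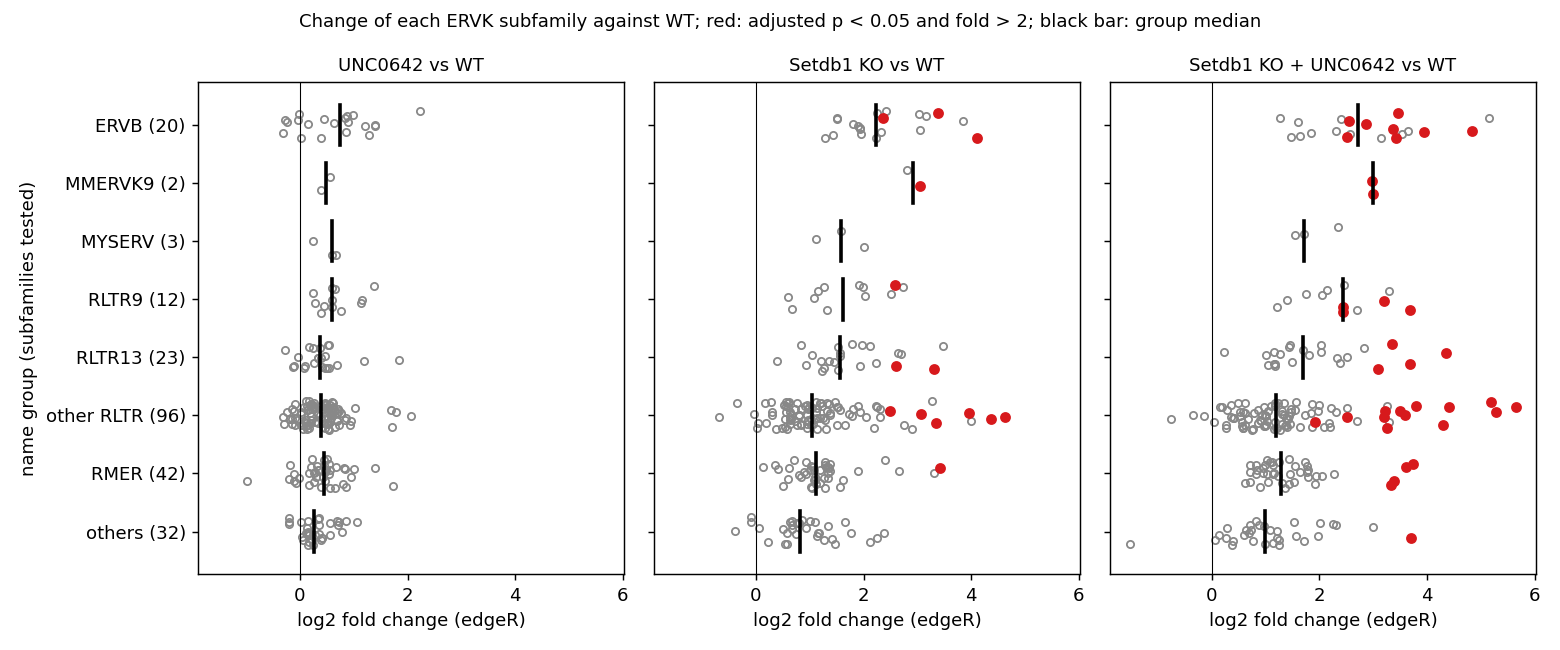
Log2 fold change against WT (x axis, edgeR) of the 230 tested subfamilies under UNC0642, after Setdb1 deletion and with both, by name group (y axis), with red points for called subfamilies, open points for the rest and black bars for the median of a group. No point is red under UNC0642 alone, 14 are red in Setdb1 KO and 36 in the combination, and the median of every group lies to the right of 0 in all 3 panels.

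For 13 elements, both an internal region and an LTR of the same name were among the 242 subfamilies, and in 12 of these both were tested. The fitted change was larger for the internal region in 6 of 12 pairs in Setdb1 KO and in 7 of 12 in the combination. The widest gap was that of RMER16, whose LTR was at 5.05 and 2.38 CPM in WT against 11.4 and 6.49 CPM in Setdb1 KO mESCs, a log2 fold change of 1.28 ± 0.68 (adjusted p = 0.723, edgeR) beside 3.42 ± 0.60 for its internal region. Pairs were made by exact name, so this gap depends on the LTR that was paired. The LTRs RMER16A3 (3.32) and RMER16_Mm (2.66) had values nearer that of RMER16-int in Setdb1 KO. These and any further LTRs of similar name were not paired. RLTR45 (2.50) and ERVB4_2-LTR_MM (2.42) also had smaller fitted values than their internal regions (4.63 and 4.10) in Setdb1 KO. The reverse order was found for ERVB4_1B, with 3.04 ± 0.60 for the LTR (adjusted p = 0.0507, edgeR) and 1.95 ± 0.66 for the internal region (adjusted p = 0.322, edgeR). The difference between parts of a pair was not tested. A read that fits several subfamilies is divided among them in the counting, so an LTR and its relatives can share reads.

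**Figure D5:**
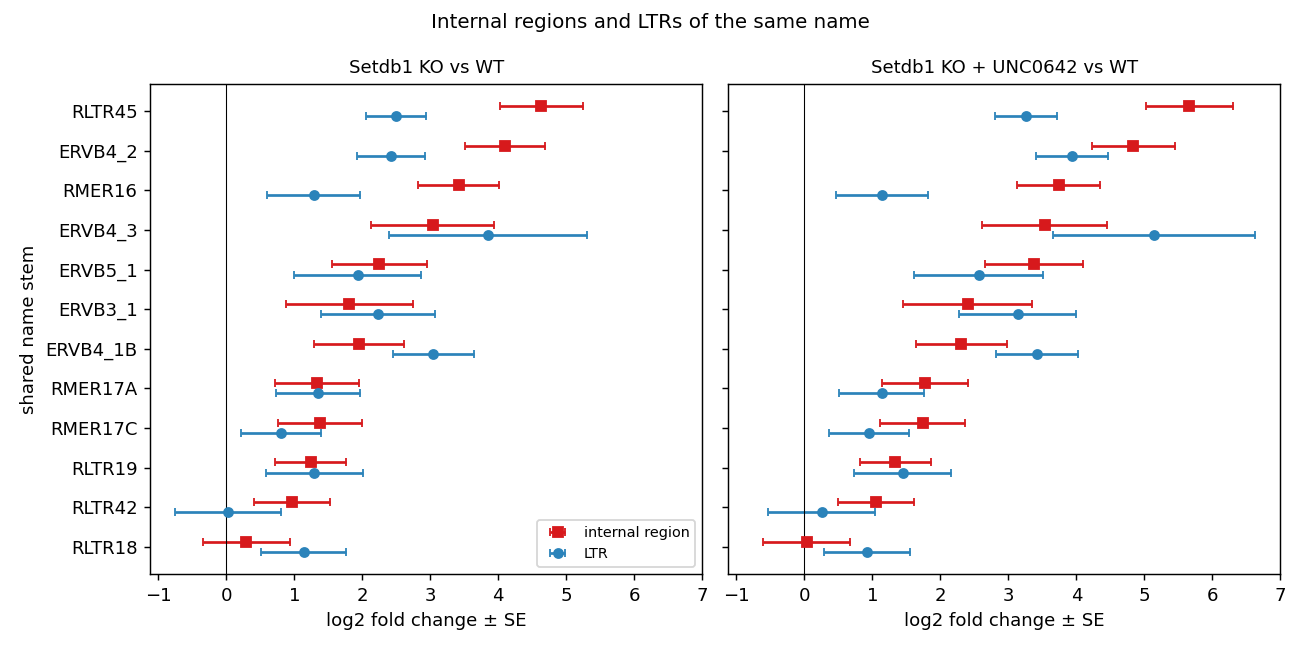
Log2 fold change with its SE (x axis, edgeR) of the internal region (squares) and the LTR (circles) of 12 elements (y axis) in Setdb1 KO and in UNC0642-treated Setdb1 KO against WT mESCs. RLTR45, ERVB4_2 and RMER16 have the larger value in the internal region in both panels, ERVB4_1B has it in the LTR, and RLTR18-int lies close to 0.

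Several subfamilies of known proviruses did not pass the test without the block. The internal region of the mouse mammary tumour virus, MMTV-int, was at 2.96 and 1.26 CPM in WT, 5.17 and 1.58 CPM in UNC0642-treated, 6.90 and 3.58 CPM in Setdb1 KO, and 6.23 and 2.68 CPM in the combination. WT and combination overlapped, and neither KO comparison passed with or without the block (adjusted p = 0.115 and 0.1 with it, edgeR). MYSERV6-int was at 59.5 and 31.0 CPM in WT against 182.6 and 86.6 CPM in Setdb1 KO mESCs, MYSERV16_I-int at 23.2 and 11.3 CPM and 85.2 and 52.2 CPM, and both lay apart from WT. MYSERV-int, at 13.4 and 6.60 CPM in WT against 31.6 and 11.5 CPM in Setdb1 KO mESCs, overlapped WT there. In the combination it stood at 51.7 and 14.1 CPM, above both WT libraries, and passed with the block (adjusted p = 0.0132, edgeR). MYSERV6-int and MYSERV16_I-int missed the threshold in Setdb1 KO without the block and passed with it (adjusted p = 0.00559 and 0.00409, edgeR). RLTR17, an LTR known to be bound by pluripotency factors, was at 33.3 and 26.0 CPM in WT, 58.9 and 33.8 CPM in UNC0642-treated, 87.0 and 47.9 CPM in Setdb1 KO, and 97.2 and 57.3 CPM in the combination, where it missed the threshold without the block and passed with it (adjusted p = 0.0086, edgeR).

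Of 20 tested ERVB subfamilies, 12 were not called in the combination, 11 of which were called with the block. Both libraries of the combination lay above both WT libraries for all 12, beside 22.3% of all features. ERVB4_3-LTR_MM and ERVB2_1-I_MM-int among them had at most 2 counts in either WT library. ERVB4_1C-LTR_Mm, an LTR, was at 65.4 and 37.6 CPM in WT, 54.6 and 32.1 CPM in UNC0642-treated, 153 and 126 CPM in Setdb1 KO, and 251 and 117 CPM in the combination, and it missed the threshold without the block and passed with it (adjusted p = 0.0143 in Setdb1 KO and 0.00325 in the combination, edgeR). ERVB4_1B-I_MM-int was at 16.6 and 6.03 CPM in WT and 77.9 and 33.8 CPM in the combination, and ERVB2_1A-I_MM-int at 7.93 and 3.21 CPM in WT and 20.7 and 13.02 CPM in the combination. Both lay apart from WT.

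For a few subfamilies the conditions lay close together. RNERVK23-int was at 8.53 and 9.27 CPM in WT, 11 and 11.9 CPM in UNC0642-treated, 7.62 and 9.03 CPM in Setdb1 KO, and 9.45 and 9.19 CPM in the combination. RLTR18-int was at 14.6 and 6.57 CPM in WT, 15.4 and 5.94 CPM in UNC0642-treated, 15.6 and 10.3 CPM in Setdb1 KO, and 13.6 and 8.05 CPM in the combination. Among subfamilies with a mean of at least 1 CPM, RLTR12B2 and RLTR20C were those with a fitted value below 0 in the combination. RLTR12B2 was at 2.18 and 0.325 CPM in WT and 1.14 and 0.772 CPM in the combination, and RLTR20C at 2.26 and 1.16 CPM and 2.08 and 1.03 CPM. In Setdb1 KO the fitted value was below 0 at such levels for RNERVK23-int, for MLTR31E_MM, at 3.14 and 0.938 CPM in WT and 2.84 and 0.881 CPM, and for RLTR16B_MM, at 11.2 and 4.62 CPM in WT and 10.9 and 4.46 CPM. None of these passed the test. The WT and combination libraries of RLTR18-int, RLTR12B2 and RLTR20C overlapped.

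The other ERVK subfamilies give a frame for these values. Of 25 IAP subfamilies, 10 were called in Setdb1 KO and 21 in the combination (21 and 24 with the block), with median log2 fold changes of 2.52 and 3.29. Of 13 MMERVK10 and RLTR10 subfamilies, 7 and 11 were called (10 and 13 with the block, medians 3.12 and 3.89), and of 5 ETn/MusD subfamilies 3 and 3 (5 and 5 with the block, medians 2.94 and 2.70). The 242 subfamilies described here, with 14 and 36 of 230 called (59 and 123 with the block) and medians of 1.21 and 1.39, lay between these and the 659 tested subfamilies outside ERVK, of which 12 and 42 were called (91 and 186 with the block, medians 0.81 and 0.90). Over all features 1.11% and 3.6% were called higher, and 3.77% and 9.47% with the block. The largest fitted value was 4.63 and 5.66 in the subfamilies described here, 5.60 and 6.36 in IAP, 7.08 and 7.01 in MMERVK10 and RLTR10, 3.11 and 3.10 in ETn/MusD and 7.44 and 7.41 outside ERVK. The difference between groups of subfamilies was not tested.

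Of 31 genes of H3K9 methylation and retroviral silencing, none was called by edgeR in any comparison, beside the 1.11% and 3.6% of all features called higher in the KO comparisons. With the block, Setdb1 was lower in both KO conditions. Atf7ip, which encodes the cofactor that stabilises SETDB1, was at 102.4 and 94.2 CPM in WT against 341 and 211 CPM in Setdb1 KO mESCs, and it was higher with the block in both KO conditions (adjusted p = 0.0339 and 0.0223, edgeR). Zfp809, a KRAB zinc finger gene known for silencing retroviruses, was likewise higher with the block (adjusted p = 0.0249 and 0.00598, edgeR). Atf7ip2 was higher and Ehmt2, which encodes G9a, lower in the combination with the block (adjusted p = 0.0132 and 0.0235, edgeR). With the block, 2 of 31 genes were thus higher and 1 lower in Setdb1 KO, beside 3.77% and 0.486% of all features. In the combination 3 of 31 (9.68%) were higher and 2 lower, beside 9.47% and 6.44%. The share in the combination lay near that of all features. Trim28 differed between the WT replicates, at 395 and 1301 CPM, and the other genes of the list did not pass in either fit.

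Markers of 2-cell-like cells summed above WT in every treated condition, while edgeR without the block called them only in the KO conditions. Of 10 markers of 2-cell-like cells, 9 were tested, of which 0 were called in UNC0642-treated, 1 in Setdb1 KO and 9 in UNC0642-treated Setdb1 KO mESCs (2, 8 and 9 with the block), beside 0%, 1.11% and 3.6% of all features (0.166%, 3.77% and 9.47% with the block), and their summed level was between 8.88 and 26.7 CPM in WT, 283 and 810 CPM in UNC0642-treated, 158 and 385 CPM in Setdb1 KO, and 622 and 1412 CPM in the combination. Of 6 germ layer markers, Fgf5 was called in the combination (adjusted p = 0.0493, edgeR), which is 16.7%, beside 3.6% of all features. With the block Fgf5 and Otx2 were called in both KO conditions (adjusted p = 0.0319 and 0.00851 in Setdb1 KO, 0.0221 and 0.0225 in the combination, edgeR). That is 33.3%, beside 3.77% and 9.47% of all features. Otx2 was also called with the block against UNC0642-treated mESCs (adjusted p = 0.045, edgeR), 16.7% of the list beside 3.79%. In both KO comparisons with WT, 4 of the 6 fitted log2 values were above 0 and 2 below. The lowest was -1.85 in Setdb1 KO and -2.59 in the combination. The summed level of the list was between 50.6 and 96.0 CPM in WT and between 246 and 395 CPM after Setdb1 deletion, most of it Otx2. T had at most 18 counts in any library. The trophectoderm, primitive endoderm and fibroblast markers had no call by edgeR. With the block 1 of 6 tested trophectoderm markers was lower in the combination than in WT, beside 6.44% of all features. In the same fit 1 of 5 primitive endoderm markers was lower in the combination than in UNC0642-treated mESCs, beside 0.825%. The part of these cell states in the levels of the ERVK subfamilies was not tested.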

How the data were processed

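Poly(A) RNA was sequenced from 8 libraries, 2 for each of 4 conditions, whose condition and replicate number come from the labels. The files hold unnormalised counts for each gene and transposable element subfamily, which the authors made by trimming (Trim Galore 0.3.7), TopHat mapping to GRCm38 and TEtranscripts counting, in which reads that map to several places are shared among them. Total counts were between 11702590 and 26807807. Subfamily lengths were not used here, so levels were not compared between subfamilies.

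All features were fitted together in R 4.3.3 with edgeR 4.0.16. filterByExpr (minimum count 10, minimum total 15) left 15313 genes and 932 subfamilies, and TMM factors were between 0.81 and 1.2. The quasi-likelihood model had 1 coefficient per condition over all 8 libraries (prior count 0.125), with Benjamini-Hochberg adjustment over all 16245 features. A feature was called at an adjusted p below 0.05 and more than a 2-fold change. The SE was the absolute log2 fold change over the root of F. Alternatives were DESeq2 1.42.0 (the study's tool) on all or the compared libraries, a fold change over 10 (the study's limit), a replicate block, edgeR on the compared libraries, RLE factors, total counts, factors from genes alone, no filter, a prior count of 2, the adjusted p alone and each library left out.

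Conditions share replicate numbers 1 and 2, and no source says that same-numbered cultures were grown together. Deviations of replicate 1 from replicate 2 correlated across genes in all 6 pairs of conditions (0.285 to 0.663, median 0.587), above the 0.1 taken as the limit for pairing, so blocked values stand beside the others. In the block fit 5671 of 16245 features had a replicate effect, 110 of them among the subfamilies described. After the main fit, edgeR with and without the block was also run on simulated counts. Their means, spread and replicate effect came from the fits to these data, and the outcome is not reported here. The p-values measure the spread between these libraries, and the floor of 3 counts covers counting error only.

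Values are given for up to 10 subfamilies called per comparison by p, for chosen RLTR9, RLTR13, RLTR17, MMTV, MYSERV, MMERVK9 and ERVB names, for the 5 with the highest total count and for those with the largest fitted fall at a mean of at least 1 CPM. BGLII, RMER3D-int, RLTR18-int, RLTR20A1 and the gene Trim28 were named after their values were seen. The members and lists were chosen with earlier results of these data known.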

Additional observations from a re-analysis of the deposited data

How the results depend on the processing

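No subfamily was called lower under any alternative in any comparison. The counts called higher moved with the tool and the block. In UNC0642-treated mESCs the count was 2 with DESeq2 on all libraries and 1 with DESeq2 on the compared libraries (0 by edgeR). In Setdb1 KO mESCs it was 43 and 36 with these DESeq2 fits, 59 with the replicate block and 7 at a fold change over 10 (14 by edgeR). In UNC0642-treated Setdb1 KO against WT mESCs it was 69, 59, 123 and 22 (36 by edgeR). Against UNC0642-treated mESCs it was 42, 38, 55 and 6, and also 7 with edgeR on the compared libraries, 7 with total counts and 22 without the filter (14 by edgeR). The calls of edgeR were all among those of both DESeq2 fits and of the block fit. With 1 library left out, a lone library is assumed to vary like the other groups, and the counts ranged from 0 to 15 in Setdb1 KO, from 0 to 36 in UNC0642-treated Setdb1 KO against WT and from 0 to 9 against UNC0642-treated mESCs, with 0 in the other comparisons throughout. The replicate block changed no call in UNC0642-treated against WT mESCs, in UNC0642-treated Setdb1 KO against Setdb1 KO mESCs or in the interaction.

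The direction of all 58 subfamilies followed through the alternatives held in each of 2385 refits of 141 values. RLTR12F was followed only against Setdb1 KO, and not in the KO comparisons with WT. Outside the KO comparisons with WT, values were followed only if called, at an unadjusted p under 0.05, or among the smallest interaction p. RLTR18-int, RNERVK23-int, RLTR12B2 and RLTR20C, whose conditions lay close together or whose fitted value fell below 0, were not among the 58. Called subfamilies were also among those picked, and the refits reuse the same libraries. The held direction is therefore a description and no independent test. Of refits of called values 806 stayed past the threshold and 282 did not, and of refits of values not called 138 passed it. Total counts in place of TMM shifted the median of all features by -0.17 in UNC0642-treated Setdb1 KO against WT, by -0.21 against UNC0642-treated and by -0.14 in the interaction, and relative to that shift the median of the subfamilies stayed above 0 in all comparisons but the interaction. Precision is limited by the spread between replicates, part of which the block takes up, and by low counts, with 12 of 242 subfamilies too low to test. The cause of the replicate shift was not tested.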
